A study of Oryza sativa with 6 samples.

Results

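The red, far-red and blue light receptors described here are the rice phytochromes A, B and C and the cryptochromes 1 and 2, 5 of the 35500 loci in the deposited table. They were picked by gene name and not by a rule on their measured values, though with earlier results of these data known. Each name matched 1 locus, and each reached at least 1 FPKM in every library. The tissue was mesocotyl of P25, an indica rice cultivar. The mesocotyl is a stem-like part that joins seed and coleoptile and lengthens in darkness. The 6 RNA pools were sequenced as 1 library each. They came from seedlings 1, 3 and 5 days old, all kept dark, and from 5-day dark seedlings then given 30 min, 60 min or 24 h of light. The 24-h light seedlings were thus about a day older than the 5-day dark ones, and no dark library has their age. The labels give no genotype other than the cultivar, no light quality and no hour of sampling. Each group has 1 library, so no comparison has a replicate check or a p-value, and every difference is one between single libraries.

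Phytochromes are soluble receptors that bind a linear tetrapyrrole and switch between a red-absorbing and a far-red-absorbing form. Phytochrome A builds up in darkness, is broken down in light and acts in far-red and very weak light, while phytochromes B and C are more stable in light. Cryptochromes are flavin-binding blue light receptors related to DNA photolyases. In seedlings these families restrain stem growth in light, and in rice phytochromes take part in the light inhibition of the mesocotyl.

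Phytochrome A (ZS03g0651500), the receptor that lets dark-grown seedlings sense first light, had the highest level of the 5 receptors in every library. Its level was 102.8 FPKM at 1 day, 39.5 at 3 days and 63.6 at 5 days of darkness. It was 37.4 FPKM after 30 min, 23.2 after 60 min and 43.9 after 24 h of light. FPKM are fragments scaled to transcript length and library size, so levels of different genes can be set side by side. The highest library was the 1-day dark one and the lowest the 60-min light one, 4.44-fold apart, and both places were kept under each of 4 other scalings of the libraries. Phytochrome A ranked 518th by FPKM among 23787 loci at 1 day of darkness and 3231st after 60 min of light.

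Phytochrome B (ZS03g0205300), the main receptor for steady red light, ranged 1.90-fold over the libraries, close to the 2.01-fold of cryptochrome 2. Its level was 7.41 FPKM at 1 day, 10.0 at 3 days and 14.1 at 5 days of darkness. It was 10.3 FPKM after 30 min, 12.3 after 60 min and 11.6 after 24 h of light, all inside the dark values. With libraries scaled to a pair of ubiquitin-conjugating enzyme loci, the 60-min and 24-h levels lay just above the dark ones, at 13.2 and 11.9 against at most 11.8.

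Phytochrome C (ZS03g0694400), whose protein in rice depends on phytochrome B, was the lowest receptor in 5 of the 6 libraries. Its level was 3.03, 1.52 and 3.998 FPKM at 1, 3 and 5 days of darkness. In light it was 2.03 FPKM after 30 min, 5.61 after 60 min and 2.67 after 24 h. The 60-min level was above every dark level, and the 30-min and 24-h levels lay inside the dark values.

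Cryptochrome 1 (ZS02g0441500), which in Arabidopsis restrains stem growth in blue light, stood apart in the 5-day dark library. Its level was 3.46 FPKM at 1 day, 4.02 at 3 days and 8.69 at 5 days of darkness. After 30 min, 60 min and 24 h of light it was 4.37, 4.25 and 2.85 FPKM. The 24-h level was below every dark level, and the 30-min and 60-min levels were close to those of 1 and 3 days of darkness.

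Cryptochrome 2 (ZS02g0501600), whose counterpart in Arabidopsis acts in weak blue light and in flowering, was highest at 1 day of darkness, at 14.7 FPKM. It was 7.33 FPKM at 3 days and 9.17 at 5 days. In light it was 11.8, 10.8 and 11.3 FPKM after 30 min, 60 min and 24 h, a narrow band inside the dark values.

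**Figure D1:**
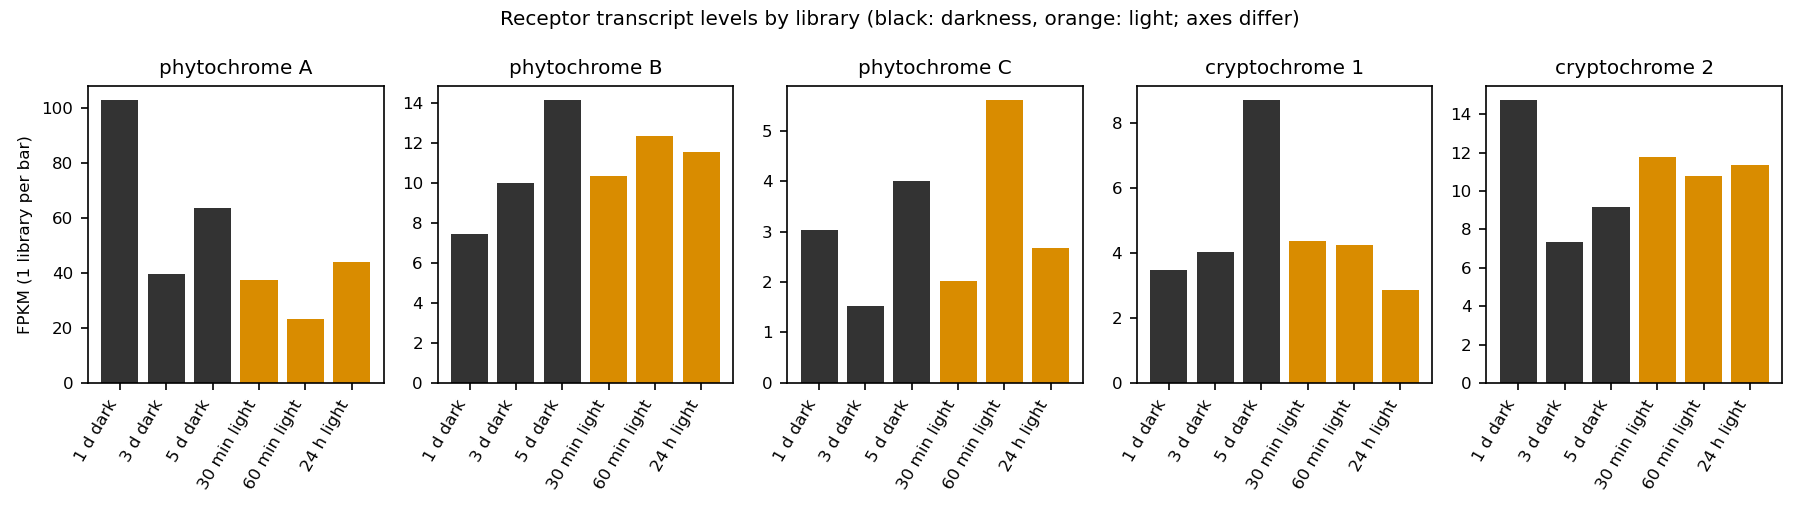
FPKM (vertical axes, each starting at 0 and differing between panels) of the 5 receptor loci in the 6 libraries, 1 library per bar, darkness in black and light in orange. Phytochrome A is highest at 1 day of darkness (102.8) and lowest after 60 min of light (23.2), while phytochrome B stays between 7.41 and 14.1.

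The order of the receptors changed below phytochrome A. Phytochrome B and cryptochrome 2 followed it in every library, in either order. They were 1.99-fold apart at 1 day of darkness, with cryptochrome 2 above. After 24 h of light they were 1.02-fold apart, with phytochrome B above. Cryptochromes 1 and 2 were 1.05-fold apart at 5 days of darkness. Cryptochrome 1 and phytochrome C were 1.14-fold apart at 1 day of darkness and 1.07-fold apart after 24 h of light. No spread between replicates exists against which to read such small gaps.

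Shares within a library do not change with the scaling of that library. Phytochrome A held 90.8% of the summed FPKM of the 3 phytochromes at 1 day of darkness, 77.4% at 3 days and 77.8% at 5 days. It held 75.2% after 30 min, 56.4% after 60 min and 75.5% after 24 h of light. The 60-min library was thus the one in which phytochromes B and C each held their largest share, at 30.0% and 13.6%. The ratio of phytochrome A to phytochrome B was 13.9 at 1 day of darkness, 3.94 at 3 days and 4.51 at 5 days. It was 3.62, 1.88 and 3.80 in the 30-min, 60-min and 24-h light libraries. The summed phytochrome level was 81.8 FPKM at 5 days of darkness and 41.1 after 60 min of light, while phytochromes B and C together were at 18.1 and 17.9 FPKM.

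The balance of the cryptochromes followed another course. Cryptochrome 1 held 19.0% of the summed cryptochrome FPKM at 1 day of darkness, 35.4% at 3 days and 48.7% at 5 days. After light its share was 27.1% at 30 min, 28.3% at 60 min and 20.1% at 24 h. The summed cryptochrome level was between 11.4 FPKM, at 3 days of darkness, and 18.2, at 1 day.

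**Figure D2:**
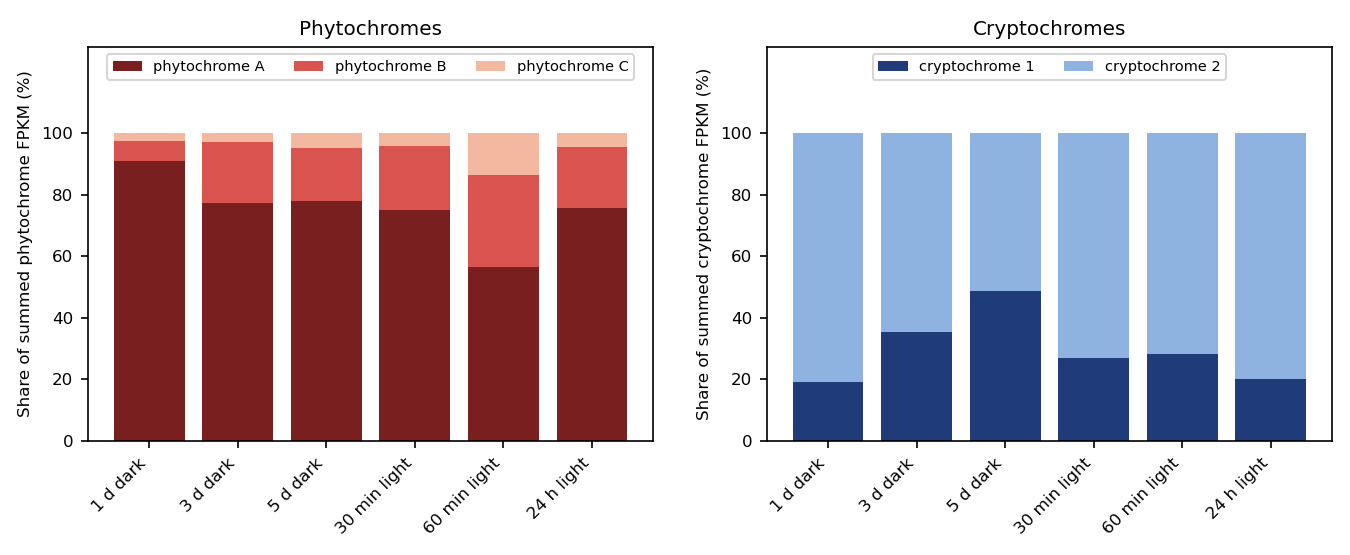
Share (%, vertical axis) of each phytochrome in the summed phytochrome FPKM (left) and of each cryptochrome in the summed cryptochrome FPKM (right) for the 6 libraries, 1 library per bar. Phytochrome A makes up 90.8% at 1 day of darkness and 56.4% after 60 min of light, and cryptochrome 1 is nearest to cryptochrome 2 at 5 days of darkness (48.7%).

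Differences between libraries were taken as log2((FPKM + 1)/(FPKM + 1)), and a locus was called higher or lower from a size of 1 upward, a 2-fold difference of FPKM + 1. This scale understates differences of low loci, and the call is a rule of size. It was applied to the 23787 loci with at least 1 FPKM in some library. From 1 to 3 days of darkness phytochrome A was lower by this rule (log2 difference -1.36), and the other 4 receptors were not called. Cryptochrome 2 (-0.92, or 2.01-fold in FPKM) was near the limit, and phytochrome C was at -0.68, phytochrome B at 0.39 and cryptochrome 1 at 0.17. Of all loci 14.5% were called lower and 13.5% higher, so 1 of 5 receptors is near the background.

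From 3 to 5 days of darkness all 5 log2 differences were above 0 as deposited, while cryptochrome 2 (0.29) turned to -0.03 with libraries scaled by the median ratio of loci and to -0.07 with the ubiquitin-conjugating loci. Phytochrome C (0.99, or 2.63-fold in FPKM) and cryptochrome 1 (0.95, or 2.16-fold) were just under the limit. Phytochromes A and B were at 0.68 and 0.46, so no receptor was called, against 14.5% of all loci called higher and 4.79% lower. The median over all loci was itself 0.27 here, and 0.02 with the median-ratio scaling, where the receptors' median was 0.32 in place of 0.68. That scaling also moved the higher calls among all calls from 75.2% to 60.0%. Between 1 and 5 days of darkness cryptochrome 1 was called higher (1.12), where 23.4% of all loci were called higher and 11.4% lower. This call ended with the median-ratio scaling (0.99) and with the ubiquitin-conjugating loci (0.95). Phytochrome A and cryptochrome 2 were at -0.68 and -0.63, and phytochromes B and C at 0.85 and 0.31.

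After 30 min of light none of the 5 receptors was called against the 5-day dark library, where 9.49% of all loci were called higher and 11.4% lower. Cryptochrome 1 (-0.85), phytochrome A (-0.75), phytochrome C (-0.72) and phytochrome B (-0.42) had log2 differences below 0, and cryptochrome 2 was at 0.33. The median of the 5 was -0.72, where that of all loci was 0.00. These values changed with the control. With the 3-day dark library the median was 0.10 and phytochrome A was at -0.08, and with the 1-day one they were -0.30 and -1.44, the last past the limit.

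After 60 min of light phytochrome A was the one receptor called lower, with a log2 difference of -1.42, or 2.74-fold in FPKM. Of all loci 12.8% were called lower and 14.8% higher, and 5.76% had a difference as low as that of phytochrome A. Among the 7110 loci with a mean of at least 10 FPKM, 11.4% were called lower. The difference of phytochrome A lay between -1.07 and -1.50 under the other scalings and pseudocounts. It was -0.74 with the 3-day dark library as the control, which ends the call, and -2.10 with the 1-day one. Cryptochrome 1 was at -0.88, phytochrome B at -0.18, phytochrome C at 0.40 and cryptochrome 2 at 0.21. With the 3-day control phytochrome C was past the limit (1.39).

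After 24 h of light cryptochrome 1 was called lower (-1.33, or 3.05-fold in FPKM), where 14.4% of all loci were called lower and 11.6% higher. With the 3-day or the 1-day dark library as the control its difference was -0.38 or -0.21, which ends the call. Phytochrome A was at -0.52, phytochrome C at -0.44, phytochrome B at -0.27 and cryptochrome 2 at 0.28. The 24-h seedlings were also about a day older than the 5-day dark ones. Light and age cannot be told apart in this comparison. All 3 comparisons of light with darkness use 1 control, the 5-day dark library, so their likeness to each other is not a separate observation.

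Between light libraries, which do not involve that control, phytochrome A was at -0.67 from 30 to 60 min and at 0.89 from 60 min to 24 h. Phytochrome C went the other way, at 1.13 and -0.85, and its first difference was called. Of all loci 15.2% were called higher and 11.8% lower from 30 to 60 min. None of the 5 receptors was called from 60 min to 24 h, where 10.6% of all loci were called higher and 15.1% lower. Phytochrome B (0.23 and -0.09) and cryptochrome 2 (-0.12 and 0.07) were close to 0 in both, and cryptochrome 1 was at -0.03 and -0.45.

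**Figure D3:**
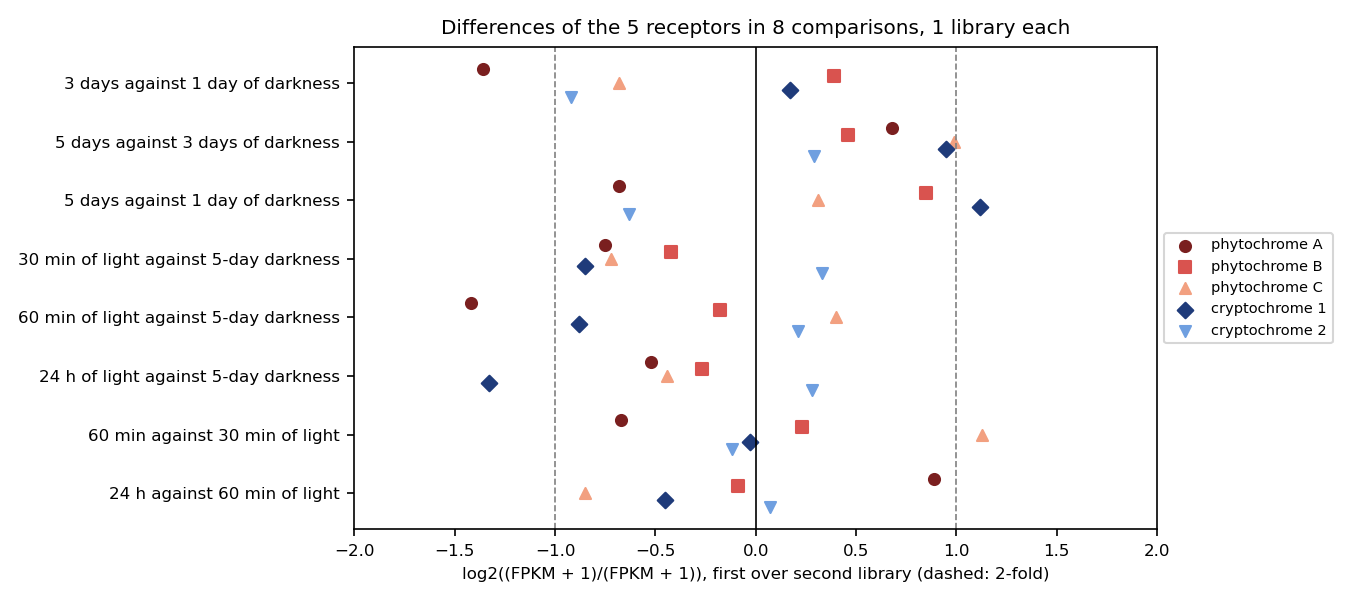
Log2 difference of FPKM + 1, first over second library (horizontal axis), of the 5 receptors in the 8 comparisons, 1 library on each side, with dashed lines at 2-fold. Phytochrome A passes the line at 3 against 1 day of darkness (-1.36) and at 60 min of light (-1.42), cryptochrome 1 at 24 h of light (-1.33) and at 5 days against 1 day of darkness (1.12), and phytochrome C at 60 against 30 min of light (1.13).

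Each light level was also set against the range of the 3 dark libraries. After 30 min phytochrome A was the 1 receptor below that range, at 37.4 FPKM against a lowest dark level of 39.5, and none was above it. Of all loci 10.1% were below and 28.8% above. After 60 min phytochrome A was below it by 1.70-fold and phytochrome C above it by 1.40-fold, where 11.4% of all loci were below and 35.2% above. After 24 h cryptochrome 1 was below it by 1.21-fold, where 12.4% of all loci were below and 28.1% above. Phytochrome A lay inside the range at 24 h as deposited, but below it with the median-ratio scaling (41.7 against 48.2) and with sums that leave out the highest loci (42.5 against 47.9). The 60-min place of phytochrome A and the 24-h place of cryptochrome 1 were kept under the 4 other scalings.

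Markers of other tissues differed between these pools. Summed over 14 loci of leaf and green coleoptile (Rubisco small subunits, antenna proteins, photosystem I and oxygen-evolving subunits), the level was 68.2, 25.8 and 325 FPKM at 1, 3 and 5 days of darkness. It was 33.0, 1025 and 55.2 FPKM in the 30-min, 60-min and 24-h light libraries. At 3 days of darkness 6 of the 14 loci were at 0, and in the 60-min library none. The 6 knotted-like loci of the shoot meristem summed to between 59.6 and 92.7 FPKM, and the 12 seed storage and oleosin loci to at most 6.60. Single knotted-like loci differed more than their sum. After 60 min of light against 5 days of darkness 2 of the 6 were called higher and 2 lower, against 14.8% and 12.8% of all loci. A pair of Casparian strip loci of the root summed to 11.7 FPKM at 5 days of darkness and 2.64 after 60 min of light, between which phytochrome A was called lower, and to at most 17.2 elsewhere. The 10 loci of dividing cells summed to 384 FPKM at 1 day and 118 at 3 days of darkness, where phytochrome A was also called lower, and to 289 at 5 days and 560 after 60 min. Within this sum the histone H4 locus ZS09g0414200 was at 116, 0, 143 and 309 FPKM in the same libraries. Of the 9 measured loci of the list, 6 were called lower and 0 higher from 1 to 3 days (median -1.85), where 14.5% of all loci were called lower. After 60 min of light against 5 days of darkness 5 were called higher and 0 lower (median 1.11). There 14.8% of all loci were called higher. From 3 to 5 days the median log2 difference of the list was 0.25, against 0.27 over all loci. The part of these markers in the receptor differences was not tested. No marker set for the mesocotyl itself was used.

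Phytochrome C placed the 6 libraries in the same order as the leaf marker sum, from 60 min of light at the top through 5 and 1 days of darkness, 24 h and 30 min of light to 3 days of darkness. Of all loci 0.769% had this order, and phytochrome C was the 1 receptor that had it. The comparison was made after both sets of values had been seen. Phytochrome A did not have this order, being lowest in the library where the leaf sum was highest. In the 1-day, 3-day, 30-min and 24-h libraries 1 merged antenna locus, ZS07g0476900, gave 37.9, 16.4, 24.4 and 29.4 FPKM of the leaf sum. The order of these libraries by the sum therefore leans on 1 locus, and not every leaf locus was highest after 60 min of light. The 5-day dark library, control of every light comparison, had a leaf sum 12.6 times that of the 3-day library, and the part of this in the receptor differences was not tested. In bulk RNA fewer cells of a type and less RNA per cell cannot be told apart.

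**Figure D4:**
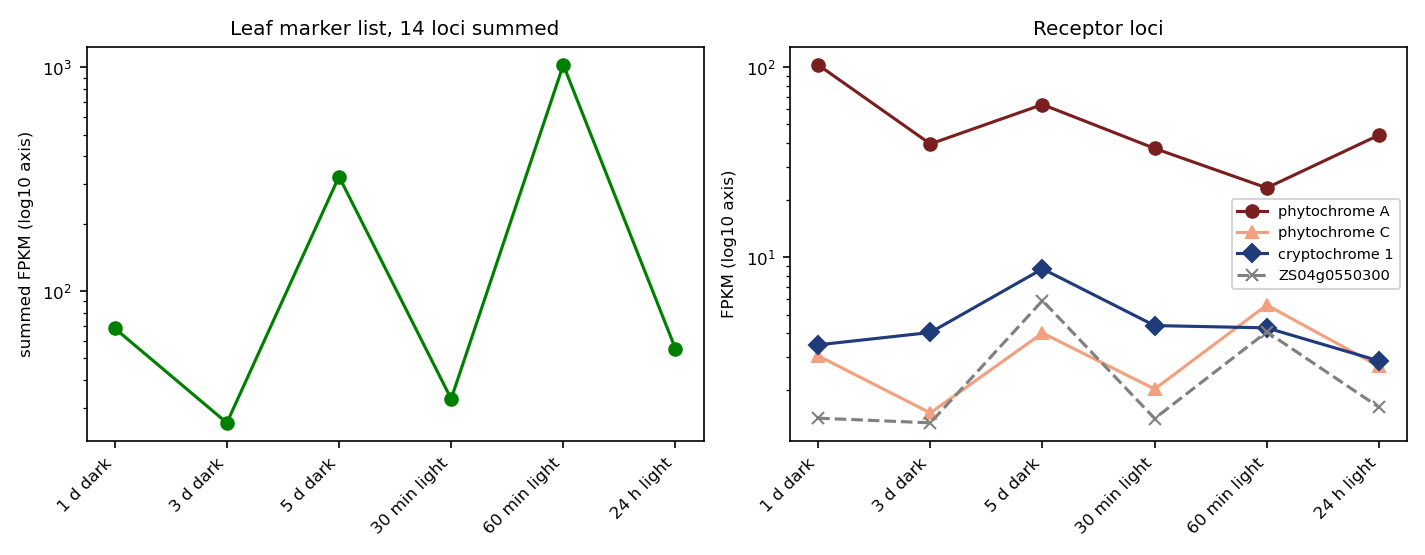
Left, summed FPKM of the 14 leaf marker loci; right, FPKM of 3 receptor loci and of the cryptochrome 1 relative ZS04g0550300, both on log10 axes over the 6 libraries, with lines joining libraries for reading only. The leaf sum and phytochrome C are highest after 60 min of light (1025 and 5.61 FPKM) and lowest at 3 days of darkness (25.8 and 1.52).

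A few further loci carried the same KEGG orthology entries as light receptors, without a receptor product name. They were found after the table had been opened. ZS04g0550300, with the entry of cryptochrome 1, was at 1.43, 1.35 and 5.92 FPKM at 1, 3 and 5 days of darkness and at 1.42, 4.05 and 1.63 in the 30-min, 60-min and 24-h light libraries. It was high in the 5-day dark and 60-min libraries, those with the highest leaf sums, whereas cryptochrome 1 itself was high in the first of these alone. ZS02g0117100, with the entry of cryptochrome 2, was at no more than 1.02 FPKM in darkness and at 1.88, 4.81 and 3.82 in light. ZS03g0651400, with the entry that phytochromes A and C share, was at 6.16 FPKM at 1 day of darkness and at 0.114 to 1.31 elsewhere, again highest where phytochrome A was. ZS08g0173600 and ZS01g0084700, with the entries of adagio-like proteins 3 and 1, were at 11.6 and 14.7 FPKM at 5 days of darkness and at 2.29 and 8.37 after 60 min of light. Reads that could match more than 1 such locus make the values of close relatives uncertain.

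The chromophore of phytochromes is made from heme in the plastid. Heme oxygenase 1 (ZS06g0526400), which opens the heme ring, was at 12.7, 28.8 and 26.4 FPKM at 1, 3 and 5 days of darkness. It was at 19.6, 10.0 and 20.5 FPKM in the 30-min, 60-min and 24-h light libraries. Like phytochrome A it was lowest after 60 min and was called lower there (-1.31), but unlike it was low at 1 day of darkness. Phytochromobilin:ferredoxin oxidoreductase (ZS01g0791500), which makes the final pigment, was at 12.2 FPKM at 5 days of darkness and at 10.8, 15.5 and 4.61 in light, called lower at 24 h (-1.24).

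Of 10 other light receptors and photolyase relatives, none was called higher and 1 lower after 30 min of light, 3 higher and 1 lower after 60 min, and none higher and 2 lower after 24 h. Of all loci 9.49%, 14.8% and 11.6% were called higher and 11.4%, 12.8% and 14.4% lower in these comparisons. The 10 loci had median log2 differences of 0.03, 0.12 and -0.15, where those of all loci were 0.00, 0.01 and 0.00. These counts and medians leave out the pair of phototropin 1 loci described below. Both were called lower after 30 and 60 min, and ZS11g0010000 also after 24 h, so the lower counts would be larger with them. Phototropin-2 (ZS04g0337700), a blue light receptor of chloroplast movement, was at 18.3 FPKM at 5 days of darkness and at 3.79, 10.2 and 6.28 in light. At 1 and 3 days of darkness it was at 0.758 and 4.28 FPKM. Adagio-like protein 3 (ZS11g0484900) is a blue light sensor of the clock and flowering pathways. Its level was 1.99, 12.7 and 10.7 FPKM at 1, 3 and 5 days of darkness. It was 12.6 FPKM after 30 min, 5.78 after 60 min and 1.03 after 24 h of light (-2.52 against 5 days). Adagio-like protein 1 (ZS06g0628400) held between 24.9 and 40.4 FPKM throughout.

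CPD photolyase (ZS10g0098200), which mends ultraviolet lesions with blue light, was at 5.46 FPKM at 5 days of darkness and at 9.63, 14.6 and 7.54 in the 30-min, 60-min and 24-h light libraries, called higher at 60 min (1.27). Cryptochrome DASH (ZS06g0584900) was at 1.77 FPKM at 5 days of darkness and at 2.10, 4.79 and 3.60 in light, also called higher at 60 min (1.06). Among loci named ultraviolet-B receptor UVR8, ZS01g0700700 was at 2.49 FPKM and then 5.97, 8.89 and 3.28, called higher at 60 min (1.50). The other 3 loci with this name alone, ZS01g0583800 (0.42), ZS01g0638700 (-0.56) and ZS11g0483400 (0.21), were within 2-fold at 60 min. A locus that merges ZS12g0178000, a hypothetical protein, with ZS12g0178100, and lists UVR8 as its other product name, was at 36.2 FPKM and then 19.2, 16.7 and 24.8, called lower at 60 min (-1.08). UVR8 is a receptor of ultraviolet-B light, and several loci with related repeats can share its product name.

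The pair of phototropin 1 loci, named nonphototropic hypocotyl 1 in the deposited table, was missed by the name search and added afterwards. ZS11g0010000 was at 24.3, 13.0 and 25.8 FPKM at 1, 3 and 5 days of darkness and at 8.53, 5.39 and 11.3 in the 30-min, 60-min and 24-h light libraries. Its light levels were all below its dark ones, with log2 differences of -1.49, -2.07 and -1.12. This course, with the lowest level at 60 min and a higher one at 24 h, was also that of phytochrome A. ZS12g0010100 was at 26.0, 3.45 and 10.1 FPKM in darkness and at 2.88, 3.47 and 6.59 in light. Its log2 differences from 5 days of darkness were -1.52, -1.31 and -0.55. These loci share a product, so their reads may have been divided between them.

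**Figure D5:**
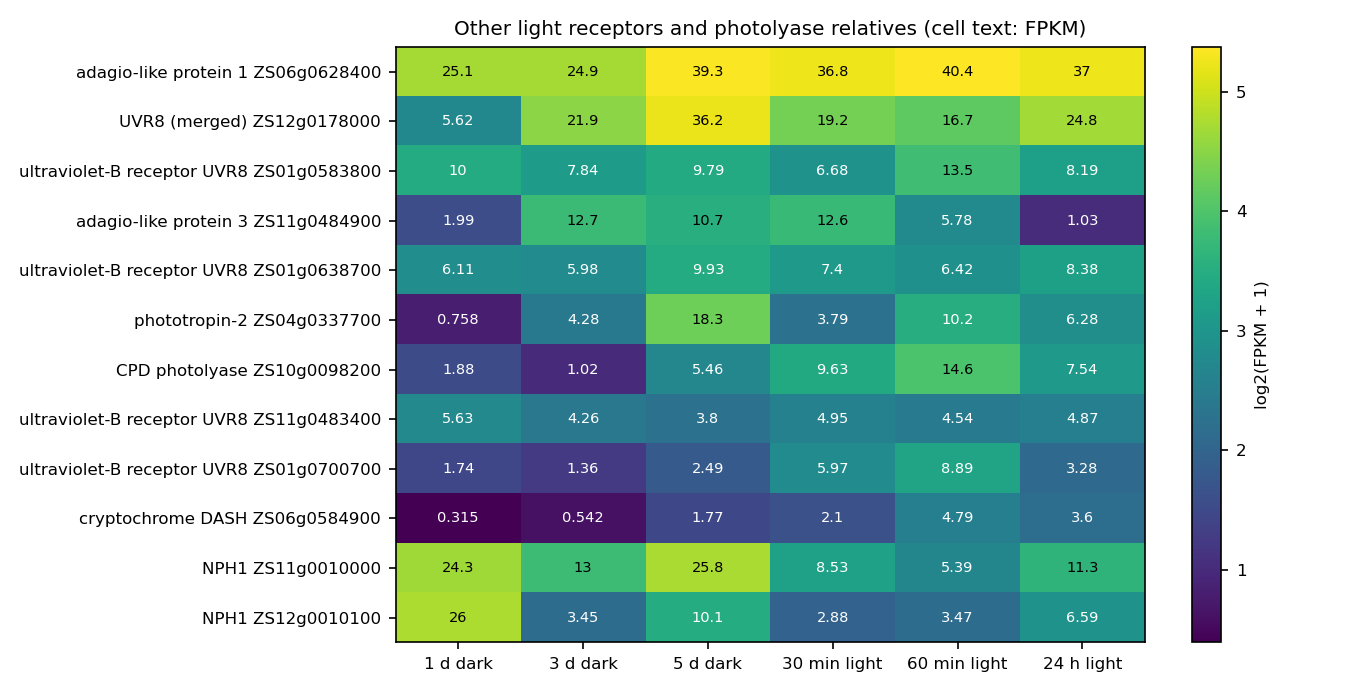
FPKM (printed in each cell) and log2(FPKM + 1) (colour) of 10 other light receptors and photolyase relatives and of the pair of phototropin 1 loci (NPH1) in the 6 libraries. ZS11g0010000 goes from 25.8 at 5 days of darkness to 5.39 after 60 min of light, while CPD photolyase goes from 5.46 to 14.6.

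Proteins that work beside the receptors gave mixed values. Of 37 loci of the FAR1 family, which in Arabidopsis holds activators of phytochrome A nuclear import, 20 reached 1 FPKM. In the 3 light comparisons 1, 1 and 1 of them were called higher and 1, 2 and 3 lower, with medians of -0.16, -0.04 and -0.24 against 0.00, 0.01 and 0.00 over all loci. As shares of 20 loci these counts are near or under those of all loci, 9.49%, 14.8% and 11.6% higher and 11.4%, 12.8% and 14.4% lower. The 2 highest, ZS12g0519800 and the merged locus headed by ZS08g0195800, were at 35.9 and 34.6 FPKM at 5 days of darkness and at 16.5 and 13.2 after 24 h of light. Serine/threonine-protein phosphatase 5 (ZS05g0122700), which in Arabidopsis dephosphorylates phytochromes, was at 18.9 FPKM at 5 days of darkness and at 27.1, 21.9 and 31.3 in light. PHYTOCHROME KINASE SUBSTRATE 4 (ZS01g0175700) was at 3.36 FPKM at 1 day of darkness and below 1 elsewhere. The phytochrome-associated phosphatase ZS01g0554200, added after the table had been opened, was at 23.9 to 38.6 FPKM.

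Downstream of the receptors, none of 10 loci of the COP1, DET1 and COP9 signalosome machinery, which removes light-promoting factors in darkness, was called in any of the 3 light comparisons, where between 9.49% and 14.8% of all loci were called in each direction. The medians of these 10 loci were 0.31, 0.35 and 0.44. COP9 signalosome subunit 7 (ZS07g0403000), the highest of them, was at 26.0 FPKM at 5 days of darkness and 42.1 after 60 min. COP1 (ZS02g0659100), named after its values were seen, was nearest to the limit, at 7.87 FPKM at 5 days of darkness and 16.6 after 60 min (0.99). Of 6 loci of light transcription factors 5 were measured. After 30 min, 60 min and 24 h of light 2, 1 and 2 of them were called higher and 1, 1 and 1 lower. Their medians were -0.73, 0.08 and -0.76. The shares of all loci were 9.49%, 14.8% and 11.6% higher and 11.4%, 12.8% and 14.4% lower. HY5 (ZS01g0075000), a promoter of light-grown development, was at 2.26 FPKM at 5 days of darkness and 12.6 after 60 min (2.07). PIF1 (ZS04g0748700), a repressor bound by active phytochromes, was at 9.96 and 1.43 FPKM (-2.17). The PIF4 loci ZS07g0052200 and ZS12g0491200, of the same family, were at 0.08 and -0.58 on the log2 scale after 60 min. The first was called lower after 30 min (-1.17). LAF1 (ZS04g0643600), a MYB factor of phytochrome A signalling in Arabidopsis, was at 0.99 after 60 min. It was called higher after 30 min (1.04) and 24 h (1.55). No locus carried a product name of the cryptochrome partners BIC or CIB.

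The loci whose profile over the 6 libraries was nearest to each receptor were ranked by Euclidean distance between centred log2(FPKM + 1) values, over 15477 loci with a product name, a single gene name and a mean of at least 1 FPKM. For phytochrome A these were a RPP13-like disease resistance locus (ZS06g0036600, distance 0.316), a dimethylaniline monooxygenase (ZS07g0012100, 0.317), the loci without a described function ZS12g0453100 (0.542) and ZS02g0155200 (0.601), and heat stress factor C-1a (ZS01g0495000, 0.546). The first of these stood at 7.71 FPKM at 1 day of darkness and 0.721 after 60 min of light. For phytochrome B all 5 nearest were within 0.192, among them ZS05g0064600, named macrophage erythroblast attacher (0.177). For phytochrome C the nearest was the chloroplast intron splicing factor CRS1 (ZS11g0520700, 0.136), followed by loci such as the U2 snRNP A' protein (ZS02g0154300, 0.234) and cyclin-P4-1-like (ZS07g0157500, 0.245).

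CRS1 was at 9.81 FPKM after 60 min of light and 3.15 at 3 days of darkness, the libraries in which phytochrome C was highest and lowest. For cryptochrome 1 the nearest were purple acid phosphatase 1 (ZS03g0107400, 0.123) and ZS07g0571000 (0.166), and F-box protein FBW2 (ZS03g0462700, 0.207) was also among the 5. For cryptochrome 2 they included chaperone dnaJ 15 (ZS01g0377900, 0.108), phosphatase 2A subunit A beta (ZS09g0075500, 0.143) and a mitochondrial malic enzyme (ZS07g0410100, 0.157). No receptor was among the 5 nearest of another: the closest pair, phytochrome B and cryptochrome 1, were 0.814 apart, with 3462 loci nearer to phytochrome B.

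The authors' deposited table gives a p-value and a q-value per locus without naming the test or the libraries compared. In that table phytochrome A has q = 8.76e-10, while q is 1 for phytochromes B and C and for both cryptochromes. A q under 0.05 is given to 2530 of the 35500 loci. Each group has 1 library, so these values cannot rest on replicates within a group. The table assigns all 5 receptors to the KEGG pathway of the plant circadian rhythm, with 158 loci in all. Phytochrome A is listed with 5 transcripts, phytochrome B with 4, phytochrome C with 1, cryptochrome 1 with 5 and cryptochrome 2 with 7, and FPKM per locus does not show which transcript differed.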

How the data were processed

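Per the labels' protocols, TRIzol was used to extract RNA from mesocotyls, mRNA was pulled out on poly-T beads, and libraries were read on an Illumina HiSeq. The authors deposited FPKM per locus for 6 libraries, 1 per group, and, per the file headers, 1 deposited p-value and 1 deposited q-value for each. Bowtie 0.12.2 and mm8, a mouse build, are named in the submitters' processing notes without a role. Which aligner and counter produced the rice values is not given in the sources used here. None of the gene names matched the reference table for assembly ASM3414082v1 (0 matches), so no coordinates or sequences are printed.

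FPKM give no read counts. Among low loci with 1 transcript, at most 4.55% lay within 0.3% of the most common ratio to the 1-day library, so depth is unknown and no counting interval is given. Library sums were 336212 to 359808 FPKM.

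Python 3.11.15, numpy 2.4.6 and pandas 2.3.3 were used. Differences used a pseudocount of 1 FPKM, and calculations were tested on simulated data. Alternatives were pseudocounts of 0.1 and none, 4 scalings (median ratio, library sums, sums without the 10 highest loci of each library, ubiquitin-conjugating loci) and other dark controls. The receptors, 7 pathway lists and 5 marker lists were chosen with earlier results of these data known. Named loci are the receptors, list members among the 6 highest means of their list or with 2-fold differences in light, and loci among the 5 nearest to each receptor. COP1, the UVR8 locus ZS11g0483400 and 8 loci added after the table was opened fall outside this rule.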

Additional observations from a re-analysis of the deposited data

How the results depend on the processing

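Of 270 alternative values for single receptors, 253 stayed on the same side of the 2-fold limit, 12 came to lie past it and 5 no longer did. Most differences were within the limit to begin with, so few calls could be lost. Values on the same side could still change sign. With the 3-day control at 30 min, cryptochrome 1 went from -0.85 to 0.10 and phytochrome C from -0.72 to 0.27. Phytochrome A was past the limit at 30 min (-1.44) and 24 h (-1.21) of light with the 1-day dark library as control, and not at 60 min with the 3-day one (-0.74). Medians of the 5 receptors stayed within 2-fold under every alternative run, but those in light changed sign with the control. With the 3-day one they were 0.10, 0.28 and 0.19 at 30 min, 60 min and 24 h in place of -0.72, -0.18 and -0.44. The 60-min median was also 0.24 with the 1-day control and 0.15 with the ubiquitin-conjugating loci, which also turned that of 60 against 30 min (-0.03 to 0.03). Phytochrome C at 60 min was 1.39 with the 3-day control. Without a pseudocount, cryptochrome 2 (3 against 1 day, -1.01), phytochrome C (5 against 3 days, 1.40; 24 h against 60 min, -1.07) and cryptochrome 1 (5 against 3 days, 1.11; 60 min of light, -1.03) passed the limit.

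With a pseudocount of 0.1, calls over all loci changed by more than 1.5 times in several comparisons. Higher and lower calls went from 3218 and 3443 to 5239 and 5260 (3 against 1 day), from 3460 and 1140 to 5896 and 1952 (5 against 3 days) and from 2257 and 2717 to 3791 and 4198 (30 min of light). Lower calls went from 3039 to 4626 (60 min of light) and from 2806 to 4605 (60 against 30 min), and higher calls from 2750 to 4260 (24 h of light) and from 2533 to 3941 (24 h against 60 min). Loci with a mean of at least 10 FPKM, an alternative chosen after seeing the data, gave 258 to 1487 calls because fewer loci enter. Of the 5 loci nearest to each receptor, a pseudocount of 0.1 kept 2 for phytochrome A, 1 for phytochrome C, 3 for cryptochrome 1, 4 for phytochrome B and 5 for cryptochrome 2. Median-ratio scaling kept 3 for phytochrome C and 4 or 5 for the others. No paired analysis was possible because every group has 1 library.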
